A study of Mus musculus with 6 samples.

Results

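The SLC25 family holds the carriers of the inner mitochondrial membrane. The 47 genes described here are the rows of the deposited table whose symbol is Slc25a followed by a number alone, out of 24421 gene symbols. The rule reads the symbol alone, but it was chosen with earlier results of these data known. An earlier description of these data had named Slc25a25. Each carrier exchanges or moves a small molecule, such as ADP and ATP, phosphate, a carboxylate, an amino acid or a cofactor, between the cytosol and the matrix. Heart muscle relies on them to export the ATP of respiration and to bring in fatty acyl groups and reducing equivalents. A few members work elsewhere: Slc25a17 is known from peroxisomes and Slc25a46 from the outer mitochondrial membrane. CCR4-NOT, the complex to which Cnot3 belongs, removes poly(A) tails from cytoplasmic mRNAs and is recruited to many of them by proteins or microRNAs bound to the 3′ UTR.

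The lysates came from whole hearts of C57BL6/J mice aged 4 weeks, and no genotype or treatment differed between the groups. Sequencing covered 2 immunoprecipitates made with anti-Cnot3 IgG (Cnot3 RIP), 2 made with control IgG (control IgG RIP) and 2 samples of lysate RNA (Input). RNA immunoprecipitation (RIP) recovers transcripts that come down with the protein an antibody binds. The labels leave unstated which hearts the replicates came from. The p-values therefore speak to variation among these libraries alone, and that variation could be technical.

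Library totals ran from 15713318 to 33479580 reads, and from 3407528 to 12500739 without Rn45s, the ribosomal RNA precursor. The 47 carriers together took 20455 to 67738 reads per library. Their share of the reads without Rn45s was 0.467% and 0.542% in Cnot3 RIP, against 0.390% and 0.428% in control IgG RIP, with 0.600% and 0.682% in Input. Values below are scaled CPM: the deposited CPM, which set each gene's reads against the library total, divided by factors from edgeR's TMM method, which puts libraries with unequal Rn45s on a common scale. A count of 0 allows up to 3 reads, or 0.0899 to 0.277 scaled CPM. Cardiomyocyte markers were abundant, at a summed 24400 and 25200 scaled CPM in Cnot3 RIP, against 34900 and 19500 in control IgG RIP, with 19000 and 23000 in Input. Myh6 and Ryr2 made up most of that sum and were above Input in both immunoprecipitates, though neither was called. Their log2 fold changes for Cnot3 RIP and control IgG RIP were 0.75 and 0.80 (Myh6) and 0.46 and 0.82 (Ryr2). The other 6 of the 8 markers had log2 fold changes below 0 against Input in both immunoprecipitates (median of the 8 -0.54 for Cnot3 RIP and -0.63 for control IgG RIP). Nppa was called lower in both (-1.42 and -1.24, limma adjusted p = 0.0150 and 0.0312). Endothelial markers summed to 423 and 235 scaled CPM in Cnot3 RIP, against 260 and 414 in control IgG RIP, with 313 and 260 in Input, and fibroblast markers to 536 and 301 in Cnot3 RIP, against 341 and 499 in control IgG RIP, with 460 and 401 in Input. Skeletal muscle markers summed to 220 to 444 scaled CPM in the 6 libraries, nearly all of it Ckm (188 to 375) and Acta1 (29.2 to 68.5). Myh4, Myh1 and Tnnt3 of the same list stood at 0.404 or below and were too low to be tested. Brown fat markers summed to 1.59 to 6.28 and hepatocyte markers to at most 0.185, and Hba-a1, Hbb-bs and Hbb-bt of the erythroid list were at 0. In bulk RNA, fewer cells of a type and less RNA per cell cannot be told apart.

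Of the 47 carriers, 41 passed the filter on low values and were tested. Slc25a18, Slc25a31 and Slc25a53 passed it only through their control IgG RIP libraries. The other 6 were Slc25a2 with 18 reads over the 6 libraries, Slc25a43 with 17, Slc25a21 with 2, Slc25a41 with 1, and Slc25a48 and Slc25a54 with 0. The 41 spread over a wide range of levels. Per kb of the principal coding transcript, Slc25a4, the ADP/ATP carrier of heart and muscle, was the most abundant in Input at 582 scaled CPM per kb, followed by the phosphate carrier Slc25a3 at 169 and the oxoglutarate-malate carrier Slc25a11 at 76.9. Slc25a4 made up 47.1% of the summed per-kb level of all carriers in Cnot3 RIP, against 51.5% in control IgG RIP, with 56.5% in Input. Slc25a34 followed at 29.0 scaled CPM per kb in Input, the acylcarnitine carrier Slc25a20 at 26.0, Slc25a39 at 19.3 and the aspartate-glutamate carrier Slc25a13 at 17.3.

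**Figure D1:**
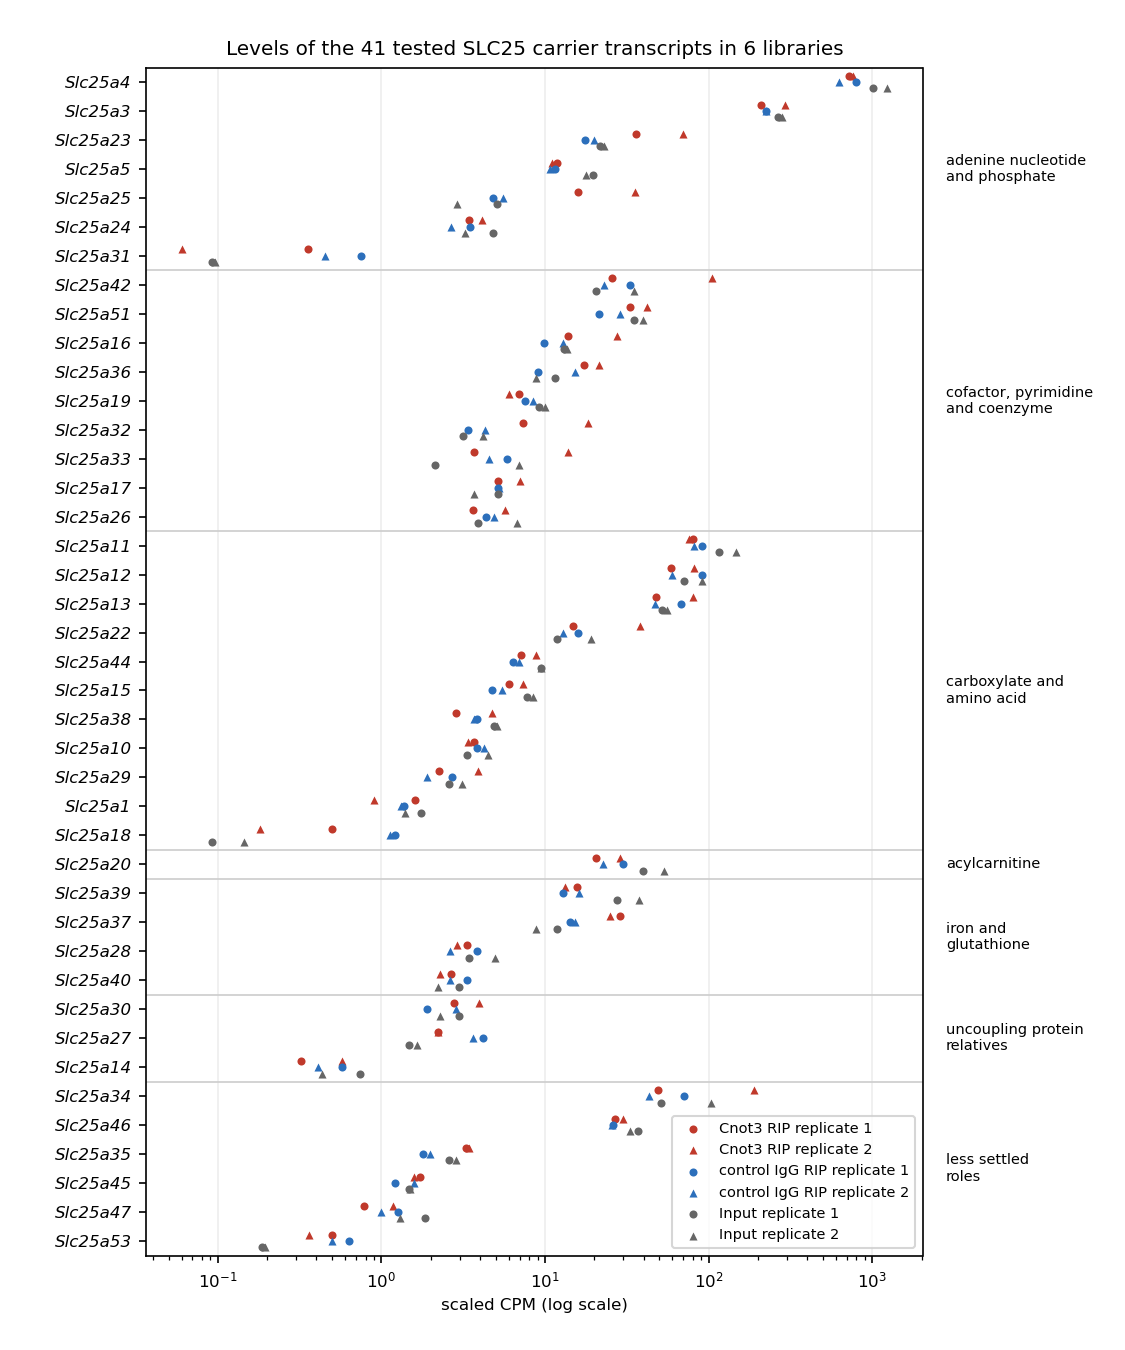
Level of each tested carrier in each library (x axis, scaled CPM on a log scale), grouped by role, with circles for replicate 1 and triangles for replicate 2 of Cnot3 RIP (red), control IgG RIP (blue) and Input (grey). Slc25a4 sits between 626 and 1234 scaled CPM in the 6 libraries, and both Cnot3 RIP points of Slc25a25 lie at 15.8 or above while its other 4 points lie at 5.53 or below.

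Setting Cnot3 RIP against control IgG RIP asks which carrier transcripts came down with Cnot3 more than with unspecific antibody. At an adjusted p under 0.05, Slc25a25 was higher in Cnot3 RIP and no carrier was lower. That is 1 of 41 carriers, where 1.81% of all 13010 tested genes were called (1.54% higher, 0.277% lower). At an unadjusted limma p under 0.05, 8 carriers were higher and 2 lower (17.3% of all genes in either direction). The 2 lower were Slc25a27 and Slc25a18, and the filter, which Slc25a18 passed only through control IgG RIP, favoured its direction. On the recovered reads, edgeR called 2 carriers higher (2.28% of genes in either direction) and DESeq2 3 (5.53%), and both called 0 lower. The median log2 fold change of the 41 was 0.14, with 24 above 0, against -0.0029 for all tested genes. The libraries of the groups did not overlap for 12 carriers that were higher in Cnot3 RIP (24% of all genes) and 6 that were lower (21.8% of all genes), so neither count lies far from its background. The 6 include Slc25a18 and Slc25a31, which were tested only through their control IgG RIP libraries.

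Slc25a25 encodes a calcium-sensitive carrier that exchanges ATP-Mg for phosphate and so adjusts the adenine nucleotide pool of the matrix. It lies on chromosome 2 (mm10 chr2:32414487-32451445, minus strand). Its transcript stood at 15.8 and 35.6 scaled CPM in Cnot3 RIP, against 4.79 and 5.53 in control IgG RIP, with 5.08 and 2.90 in Input. Both Cnot3 RIP libraries were above the other 4, and the second was 2.25 times the first. The mean was 25.7 ± 14 in Cnot3 RIP against 5.16 ± 0.524 in control IgG RIP (SD, n = 2 each), a 4.45-fold difference (log2 fold change 2.15, SE 0.39, 95% interval 1.27 to 3.03, limma adjusted p = 0.0350). Against Input it was 5.86-fold higher (log2 fold change 2.55, SE 0.39, limma adjusted p = 0.0115), the largest of the 41 carriers in both comparisons.

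The call of Slc25a25 against control IgG RIP was lost without Cnot3 RIP replicate 2 (log2 fold change 1.58, limma adjusted p = 0.150), without either control IgG RIP library (2.02 and 0.356 for replicate 1, 2.25 and 0.0903 for replicate 2) and without the filter on low values (2.19, 0.0693). Without Cnot3 RIP replicate 1 it was 2.74 (limma adjusted p = 0.00206), and over all alternative settings the adjusted p ran from 4.4e-06 to 0.356. The call against Input was lost without Input replicate 2 (2.13, 0.106). Exons of Slc25a25 overlap those of Naif1 on the opposite strand over 379 bp, 4.82% of its exon length, where reads cannot be told apart without strand. Naif1 itself had a log2 fold change of 0.87 (limma adjusted p = 0.221) in Cnot3 RIP against control IgG RIP.

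The 3′ UTR of Slc25a25 (1651 bases) holds the AU-rich motif TATTTAT at 3 places, and the bases around each are shown because AU-rich motifs bind proteins that recruit CCR4-NOT. Slc25a46, which was not called, also holds it at 3 places, in a 3′ UTR of 3023 bases (log2 fold change in Cnot3 RIP against control IgG RIP 0.13, limma adjusted p = 0.843). Capitals mark the motif, read 5′ to 3′ on the transcript strand in GENCODE transcripts of mm10, and the first and second windows overlap:
Slc25a25 site 1, chr2:32415108-32415137, minus strand: tgcttggagccTATTTATtttgtatttatt
Slc25a25 site 2, chr2:32415097-32415126, minus strand: tatttattttgTATTTATttgaacagagtt
Slc25a25 site 3, chr2:32415009-32415038, minus strand: ttttttattcaTATTTATgttcatggttga

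Motifs were searched on the transcript strand alone, since RNA is single-stranded. TATTTAT occurred in 17 of the 41 tested carriers and in 29.1% of 11887 tested genes with a 3′ UTR. The shorter ATTTA, which every TATTTAT contains, occurred in 32 of 41 carriers and in 68.3% of the genes, and TGTANATA, the motif of Pumilio proteins, in 9 of 41 and 25.7%. Among 1758 genes whose 3′ UTR is within 20% of the length in Slc25a25, 35.0% held TATTTAT at least at 1 place and 3.01% at 3 or more. A motif match describes the sequence and shows no binding.

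Among the other adenine nucleotide and phosphate carriers, Slc25a23 came closest to Slc25a25. It encodes another calcium-sensitive ATP-Mg/phosphate carrier, and had 36.0 and 69.7 scaled CPM in Cnot3 RIP, against 17.5 and 19.8 in control IgG RIP, with 21.6 and 23.0 in Input. Both Cnot3 RIP libraries were above the other 4. It was 2.24-fold higher than in Input (log2 fold change 1.16, SE 0.30, limma adjusted p = 0.0479), and its 2.67-fold difference from control IgG RIP did not pass (log2 fold change 1.42, SE 0.30, limma adjusted p = 0.0530; edgeR 0.0448 and DESeq2 0.000677 on the recovered reads). The call against Input was lost without any single library other than Cnot3 RIP replicate 1, with log2 fold changes from 0.69 to 1.16 and limma adjusted p from 0.0691 to 0.231, without the filter on low values (0.0726) and with only these 2 groups in the fit (0.0628). The 3′ UTR of Slc25a23 (1768 bases) contained none of the 3 motifs, where 88.2% of genes of like length held ATTTA. The third relative, Slc25a24, had 3.42 and 4.11 scaled CPM in Cnot3 RIP, against 3.46 and 2.67 in control IgG RIP, with 4.80 and 3.24 in Input, so its groups overlapped (log2 fold change against control IgG RIP 0.28, 95% interval -0.37 to 0.93).

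The abundant carriers of this role showed no call in any of the 3 comparisons. Slc25a4 stood at 717 and 758 scaled CPM in Cnot3 RIP, against 790 and 626 in control IgG RIP, with 1005 and 1234 in Input. Its difference between Cnot3 RIP and control IgG RIP was 0.068 on the log2 scale (95% interval -0.55 to 0.69), and against Input the log2 fold changes were -0.60 for Cnot3 RIP (limma adjusted p = 0.201) and -0.66 for control IgG RIP (0.176). Slc25a5, the ADP/ATP carrier of dividing cells, had 11.9 and 11.1 scaled CPM in Cnot3 RIP, against 11.5 and 10.7 in control IgG RIP, with 19.7 and 17.8 in Input, with both immunoprecipitates below Input (limma adjusted p = 0.0755 and 0.0819). Slc25a3, which brings in the phosphate for ATP synthesis, had 210 and 294 scaled CPM in Cnot3 RIP, against 223 and 224 in control IgG RIP, with 264 and 282 in Input, and overlapped between Cnot3 RIP and each other group. Slc25a31, a testis carrier, was near the limit of detection, at 0.356 and 0.060 scaled CPM in Cnot3 RIP, against 0.750 and 0.453 in control IgG RIP, with 0.0924 and 0.0966 in Input. Slc25a4 and Slc25a5 are similar in sequence and Slc25a5 has an annotated pseudogene on chromosome 14, so their reads are less certain; how reads matching several genes were counted is not given in the sources used here.

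Of the 9 cofactor, pyrimidine and coenzyme carriers, 7 were above 0 and 2 below in Cnot3 RIP against control IgG RIP, with a median log2 fold change of 0.59. Of all 13010 tested genes, 6461 were above 0. By limma 0 of 9 passed, and 4 had an unadjusted limma p under 0.05 (17.3% of all genes). By edgeR 0 passed and by DESeq2 1 (2.28% and 5.53% of all genes). Slc25a32, a carrier linked to folate and FAD on mm10 chr15:39091231-39112716 (minus strand), had 7.37 and 18.2 scaled CPM in Cnot3 RIP, against 3.40 and 4.30 in control IgG RIP, with 3.14 and 4.15 in Input. Its groups did not overlap between Cnot3 RIP and each other group. It was 3.07-fold higher than in Input (log2 fold change 1.62, SE 0.39, limma adjusted p = 0.0382), and the 2.91-fold difference from control IgG RIP did not pass (1.54, SE 0.39, limma adjusted p = 0.0856; DESeq2 0.00391). The call against Input was lost without any library other than Cnot3 RIP replicate 1 (limma adjusted p from 0.0574 to 0.167), without the filter on low values (0.0720) and with only these 2 groups in the fit (0.0543). It was 0.98 on the log2 scale without Cnot3 RIP replicate 2 and 2.25 without replicate 1.

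The 3′ UTR of Slc25a32 is 4739 bases long and holds no TATTTAT, 17 places with ATTTA and 4 with TGTANATA. Among 698 genes with a 3′ UTR of like length, 56.9% held TGTANATA and 4.01% held it at 4 or more places, and 6.16% held ATTTA at 17 or more. The part of either motif in the level of Slc25a32 or Slc25a25 was not tested. These 4 places with TGTANATA are shown with the motif in capitals:
Slc25a32 site 1, chr15:39095657-39095686, minus strand: tttgcaatattTGTAAATAatttgatgaat
Slc25a32 site 2, chr15:39094891-39094920, minus strand: cctctatttttTGTAAATAaatcattataa
Slc25a32 site 3, chr15:39092113-39092142, minus strand: aaataaaattcTGTAGATAacaacatgtat
Slc25a32 site 4, chr15:39091344-39091373, minus strand: aatgtaataaaTGTAAATAatatgtaaaat

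Other members of this role moved less. Slc25a36, a pyrimidine nucleotide carrier, had 17.3 and 21.3 scaled CPM in Cnot3 RIP, against 9.0 and 15.3 in control IgG RIP, with 11.5 and 8.79 in Input (limma adjusted p = 0.260 against control IgG RIP and 0.0848 against Input). Slc25a16, linked to coenzyme A transport, had 13.9 and 27.5 scaled CPM in Cnot3 RIP, against 9.92 and 12.8 in control IgG RIP, with 13 and 13.6 in Input (limma adjusted p = 0.244 and 0.302). Slc25a51, the NAD carrier, had 33.1 and 42.2 scaled CPM in Cnot3 RIP, against 21.3 and 28.6 in control IgG RIP, with 35.0 and 39.8 in Input. For these 3 carriers both Cnot3 RIP libraries were above both of control IgG RIP, and Slc25a51 in Cnot3 RIP overlapped Input.

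The carboxylate and amino acid carriers serve the malate-aspartate shuttle and amino acid breakdown. Of 11 tested, 0 passed between Cnot3 RIP and control IgG RIP by limma, edgeR or DESeq2. At an unadjusted limma p under 0.05 there was 1 (17.3% of all genes). It was Slc25a18, lower in Cnot3 RIP, a direction favoured by its passing the filter only through control IgG RIP. The median log2 fold change of the 11 was -0.026. Slc25a11 had 80.4 and 76.1 scaled CPM in Cnot3 RIP, against 91.1 and 81.2 in control IgG RIP, with 116 and 147 in Input. Both immunoprecipitates were below Input, with log2 fold changes of -0.74 (limma adjusted p = 0.0727; DESeq2 0.0306) and -0.60 (0.140). Slc25a12, the calcium-regulated aspartate-glutamate carrier of muscle and brain, had 58.9 and 81.4 scaled CPM in Cnot3 RIP, against 90.5 and 59.6 in control IgG RIP, with 70.5 and 91.2 in Input. Its relative Slc25a13 had 47.5 and 80.5 scaled CPM in Cnot3 RIP, against 67.6 and 46.7 in control IgG RIP, with 51.9 and 55.8 in Input. In both, the libraries of the 3 groups overlapped. Slc25a22, a glutamate carrier, had 14.9 and 38.2 scaled CPM in Cnot3 RIP, against 15.9 and 12.8 in control IgG RIP, with 11.9 and 19.1 in Input.

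Slc25a18, the second glutamate carrier, was low, and limma called it in control IgG RIP against Input. It had 0.499 and 0.180 scaled CPM in Cnot3 RIP, against 1.21 and 1.13 in control IgG RIP, with 0.0924 and 0.145 in Input. The control libraries were above the other 4, and the gene was tested only because these 2 libraries passed the filter. Its being tested already favoured a control level above both Input and Cnot3 RIP (limma adjusted p against Input = 0.0354 without the filter). The 46 reads of control IgG RIP and 4 of Input gave a ratio of 9.2 after scaling (95% interval 3.36 to 35.2, counting error only), and the log2 fold change was 1.95 (limma adjusted p = 0.0408, SE 0.42). Against control IgG RIP, the 20 reads of Cnot3 RIP gave 0.279 of the control level (0.156 to 0.481, counting error only). The filter favoured this direction too, and the difference did not pass across libraries (limma adjusted p = 0.146, and 0.135 without the filter).

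Slc25a20, the single acylcarnitine carrier, which brings long-chain fatty acyl groups to the matrix, had 20.4 and 28.8 scaled CPM in Cnot3 RIP, against 29.9 and 22.7 in control IgG RIP, with 39.5 and 53.3 in Input. Both immunoprecipitates lay below Input without overlap, by log2 fold changes of -0.91 (limma adjusted p = 0.0669; DESeq2 0.0239) and -0.81 (0.109). The 2 immunoprecipitates overlapped each other.

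The iron and glutathione carriers went both ways against Input. Slc25a37, mitoferrin-1, which brings iron to the matrix for heme, lies on mm10 chr14:69241848-69285112 (minus strand) and had 28.6 and 24.9 scaled CPM in Cnot3 RIP, against 14.2 and 15.3 in control IgG RIP, with 11.8 and 8.79 in Input. Its groups were separate in the order Cnot3 RIP, control IgG RIP, Input. It was 2.58-fold higher in Cnot3 RIP than in Input (26.8 ± 2.59 against 10.3 ± 2.15, SD, n = 2 each, log2 fold change 1.37, SE 0.23, limma adjusted p = 0.0150). The 1.8-fold difference from control IgG RIP did not pass (0.85, SE 0.23, limma adjusted p = 0.110), and the call against Input was lost without Input replicate 1 (1.53, 0.0607) or replicate 2 (1.11, 0.169). The erythroid list, whose cells use this carrier, summed to 14 and 6.24 scaled CPM in Cnot3 RIP, against 12.1 and 13.8 in control IgG RIP, with 13.4 and 6.47 in Input, and its part in the result was not tested.

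Slc25a39, a glutathione carrier on mm10 chr11:102402985-102407946 (minus strand), was lower in both immunoprecipitates than in Input. It had 15.7 and 13.3 scaled CPM in Cnot3 RIP, against 12.9 and 16.2 in control IgG RIP, with 27.6 and 37.4 in Input. Both comparisons, which share the Input libraries, gave -1.14 on the log2 scale (SE 0.25), at limma adjusted p of 0.0279 and 0.0409. In Cnot3 RIP it was 0.454 of Input. Of the cardiomyocyte markers, 6 of 8 also had log2 fold changes below 0 against Input in both immunoprecipitates, among them Tnni3 (-1.08 and -0.98) and Mb (-1.06 and -0.97). The other markers, Myh6 (0.75 and 0.80) and Ryr2 (0.46 and 0.82), were above Input in both, uncalled. The part of cardiomyocyte RNA in the lower levels of Slc25a39, Slc25a4, Slc25a11 and Slc25a20 was not tested. With library sizes alone as scaling the change was -0.07 for Cnot3 RIP against Input and -0.38 for control IgG RIP against Input, where the medians of all tested genes were 1.02 and 0.70. The first call was lost without Cnot3 RIP replicate 2 (-1.02, limma adjusted p = 0.116), Input replicate 1 (-1.41, 0.0801) or Input replicate 2 (-0.97, 0.220), and without the filter on low values (-1.09, 0.0522). Mitoferrin-2, Slc25a28, and the glutathione carrier Slc25a40 stayed uncalled, at 2.63 to 4.97 and 2.22 to 3.34 scaled CPM over the 6 libraries.

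Of the uncoupling protein relatives, Slc25a27 (UCP4) was higher in control IgG RIP than in Input, at 4.15 and 3.62 against 1.48 and 1.64 scaled CPM (log2 fold change 1.19, SE 0.26, limma adjusted p = 0.0438). Cnot3 RIP stood between them at 2.21 and 2.22, below control IgG RIP (-0.75, limma adjusted p = 0.186). Slc25a30 had 2.78 and 3.96 scaled CPM in Cnot3 RIP, against 1.90 and 2.85 in control IgG RIP, with 2.96 and 2.27 in Input, and Slc25a14 lay between 0.321 and 0.739 in the 6 libraries. The calls of Slc25a18, Slc25a27 and Slc25a39 in control IgG RIP against Input were each lost without any single control IgG RIP or Input library, at limma adjusted p from 0.103 to 0.295, and edgeR called Slc25a39 alone (Slc25a18 0.0592, Slc25a27 0.0527). Without the filter on low values the limma adjusted p was 0.0799 for Slc25a27 and 0.0529 for Slc25a39, and DESeq2 gave 0.0683 for Slc25a27.

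Members with less settled roles held 0 calls in the 3 comparisons by limma, edgeR and DESeq2. At an unadjusted limma p under 0.05, 1 of 6 tested passed for Cnot3 RIP against control IgG RIP (17.3% of all genes). The same cutoff gave 0 for Cnot3 RIP against Input (27.2%) and 1 for control IgG RIP against Input (24.9%). The latter was Slc25a53, tested only through its control IgG RIP libraries, which already favoured a level above Input. Slc25a34 had 49.0 and 190 scaled CPM in Cnot3 RIP, against 70.6 and 43.1 in control IgG RIP, with 51.0 and 104 in Input. Slc25a46 had 26.9 and 29.9 scaled CPM in Cnot3 RIP, against 26.1 and 25.6 in control IgG RIP, with 37.0 and 33.2 in Input. In the first of these the replicates were far apart, and in the second both Input libraries were highest. Slc25a35 had 3.31 and 3.45 scaled CPM in Cnot3 RIP, against 1.79 and 1.99 in control IgG RIP, with 2.59 and 2.85 in Input (1.70-fold over control IgG RIP, limma adjusted p = 0.168), and shares 31.3% of its exon length with Rangrf on the opposite strand. Slc25a45 lay between 1.21 and 1.71 scaled CPM.

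**Figure D2:**
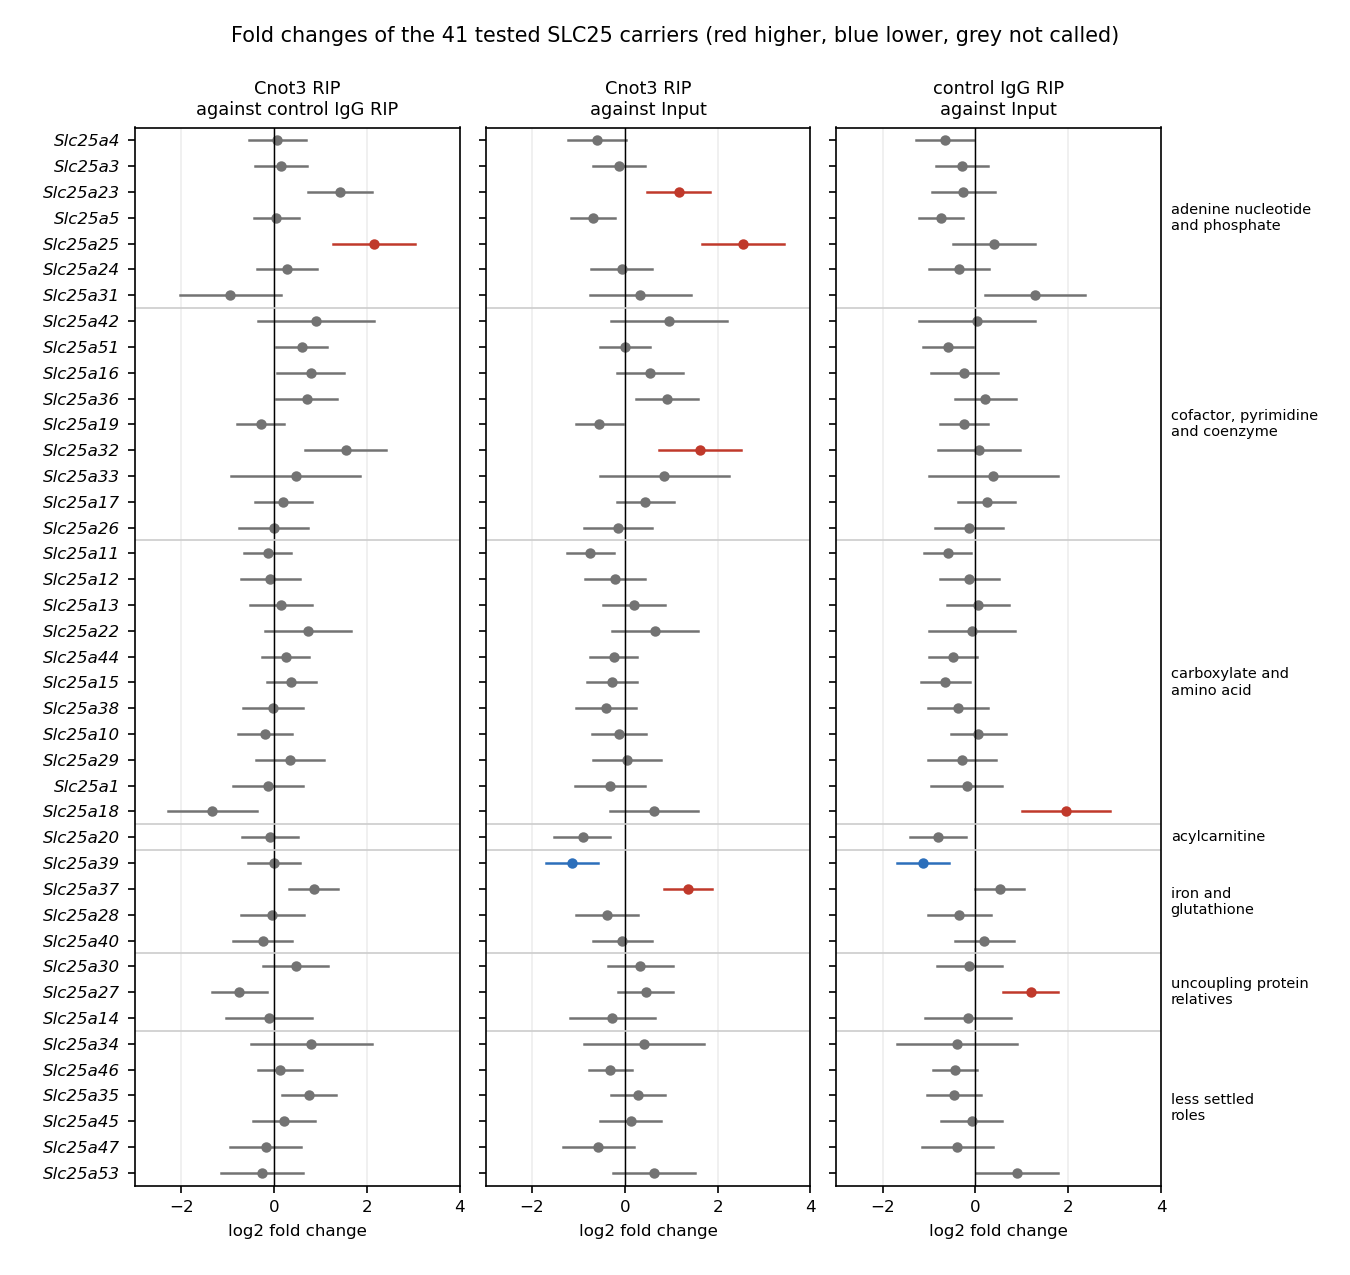
Log2 fold change (x axis) of each tested carrier with its 95% interval in the 3 comparisons, with called carriers in red (higher) or blue (lower) and the others in grey. Slc25a25 is the call between Cnot3 RIP and control IgG RIP at 2.15, and Slc25a39 is at -1.14 in both comparisons with Input.

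Over the family, Cnot3 RIP against Input gave 4 carriers higher (Slc25a25, Slc25a37, Slc25a32 and Slc25a23) and 1 lower (Slc25a39) of 41, where 8.32% of all tested genes were called (5.86% higher, 2.47% lower). At an unadjusted p under 0.05 these were 10 of 41 and 27.2% of genes. The median of the 41 was 0.0014 on the log2 scale, against 0.061 for all tested genes. The groups did not overlap for 11 higher carriers (30.6% of all genes) and 12 lower (26.9%). Control IgG RIP against Input gave 2 higher (Slc25a27, and Slc25a18 with the limit given above) and 1 lower (Slc25a39), where 4.07% of all genes were called (2.58% higher, 1.49% lower), with 11 of 41 carriers and 24.9% of genes at an unadjusted p under 0.05. The median of the 41 was -0.19 against 0.0073. There the groups did not overlap for 5 higher carriers (29.7% of all genes) and 17 lower (29.3%). Slc25a18, Slc25a31 and Slc25a53 are among these 5 and among the 11 at an unadjusted p under 0.05. They were tested only through their control IgG RIP libraries, which already favoured a level above Input, so they add no support. With library sizes alone the medians of the 41 were 0.95 and 0.50, below the 1.02 and 0.70 of all genes, and against control IgG RIP that of Cnot3 RIP was 0.45, above the 0.30 of all genes.

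The 2 Cnot3 RIP libraries differed for part of the family. In 6 of 41 carriers they were over 2-fold apart on the log2(scaled CPM + 0.25) scale (8.82% of all tested genes), against 0 of 41 in control IgG RIP (5.16%) and 2 in Input (4.86%). The 6 were higher in replicate 2. Slc25a42, a coenzyme A carrier, was 4.10 times as high there, at 25.6 and 105 scaled CPM in Cnot3 RIP, against 32.9 and 23.0 in control IgG RIP, with 20.5 and 34.9 in Input. Slc25a34 was 3.87 times as high and Slc25a33, a pyrimidine nucleotide carrier, 3.74 times, at 3.70 and 13.8 scaled CPM in Cnot3 RIP, against 5.82 and 4.53 in control IgG RIP, with 2.12 and 6.95 in Input. Differences as large as those of these 3 were found in 0.423% to 0.653% of all tested genes.

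Slc25a22, Slc25a32 and Slc25a25 followed at 2.57, 2.46 and 2.25 times. Slc25a42, Slc25a34 and Slc25a33 were also higher in replicate 2 than in replicate 1 of Input, and lower in replicate 2 than in replicate 1 of control IgG RIP. Endothelial and fibroblast marker sums ran the other way in the 3 groups, with Cnot3 RIP replicate 1, control IgG RIP replicate 2 and Input replicate 1 the higher ones, and their part in these differences was not tested. Without Cnot3 RIP replicate 1, 7 carriers passed against control IgG RIP: Slc25a25, Slc25a32, Slc25a23, Slc25a42, Slc25a34, Slc25a22 and Slc25a16, where 9.74% of all genes were called. Without replicate 2, 0 passed with limma, where 0.222% of all genes were called.

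**Figure D3:**
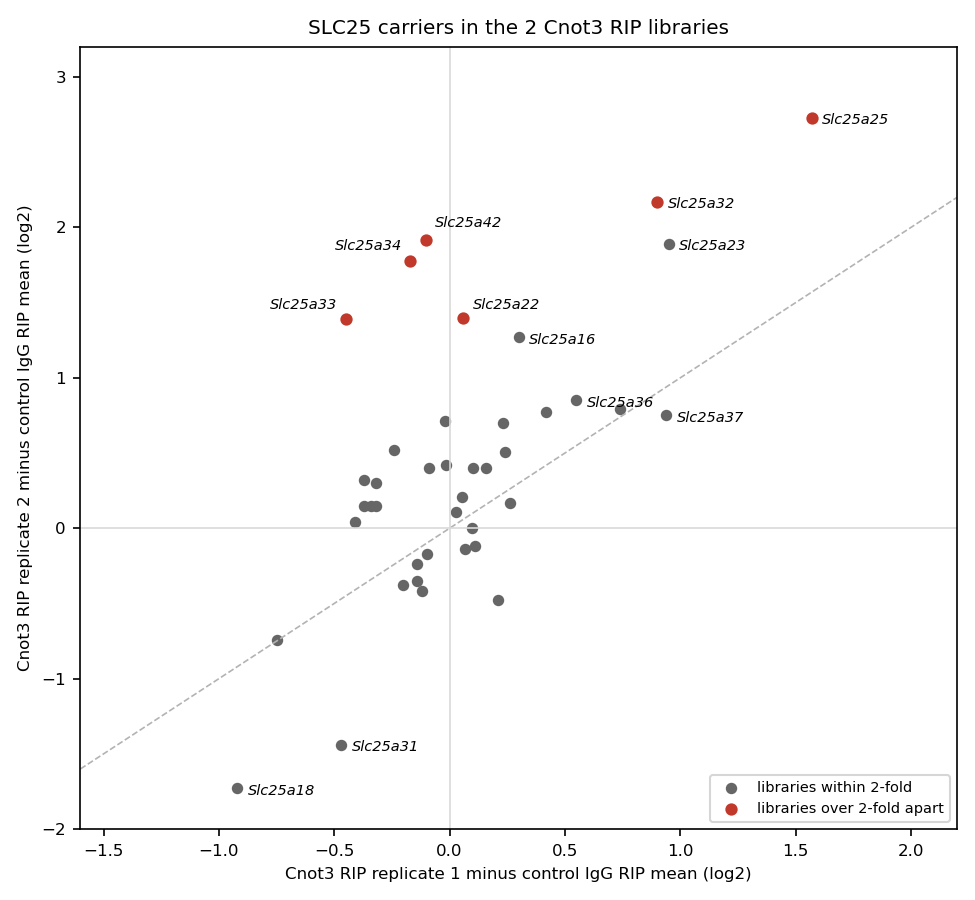
Each point is a tested carrier, with the log2 difference of Cnot3 RIP replicate 1 (x axis) and replicate 2 (y axis) from the mean of control IgG RIP. The dashed line marks equal values, and red points differ by over 2-fold between the libraries on the log2(scaled CPM + 0.25) scale. Slc25a25 is far from 0 in both libraries (1.57 and 2.73), while Slc25a42, Slc25a34 and Slc25a33 are below 0 in replicate 1 and above 1 in replicate 2.

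Carriers with long transcripts tended to stand higher in Cnot3 RIP, and against Input so did long genes in general. Across the 41 carriers, Spearman's rho between principal transcript length and log2 fold change was 0.48 against control IgG RIP and 0.52 against Input, and 0.26 for control IgG RIP against Input. Across 12006 tested genes with a coding transcript it was 0.11, 0.49 and 0.45. The 13 carriers with the longest transcripts (3196 to 6351 bp) had 12 of 13 log2 fold changes above 0 against control IgG RIP, with a median of 0.59, and the 13 shortest (1240 to 1887 bp) had 5 of 13 above 0 and a median of -0.03. Against Input, 8 of 13 of the longest were above 0 (median 0.33) and 3 of 13 of the shortest (median -0.38). Of all 13010 tested genes, 6461 were above 0 against control IgG RIP and 7001 against Input. The shares among genes of like length were not computed, so these counts are not shown to be particular to the carriers. With 3′ UTR length, rho against control IgG RIP was 0.42 over the carriers and 0.29 over the genes. These are descriptions across genes that share the same 6 libraries, and genes are not independent replicates.

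**Figure D4:**
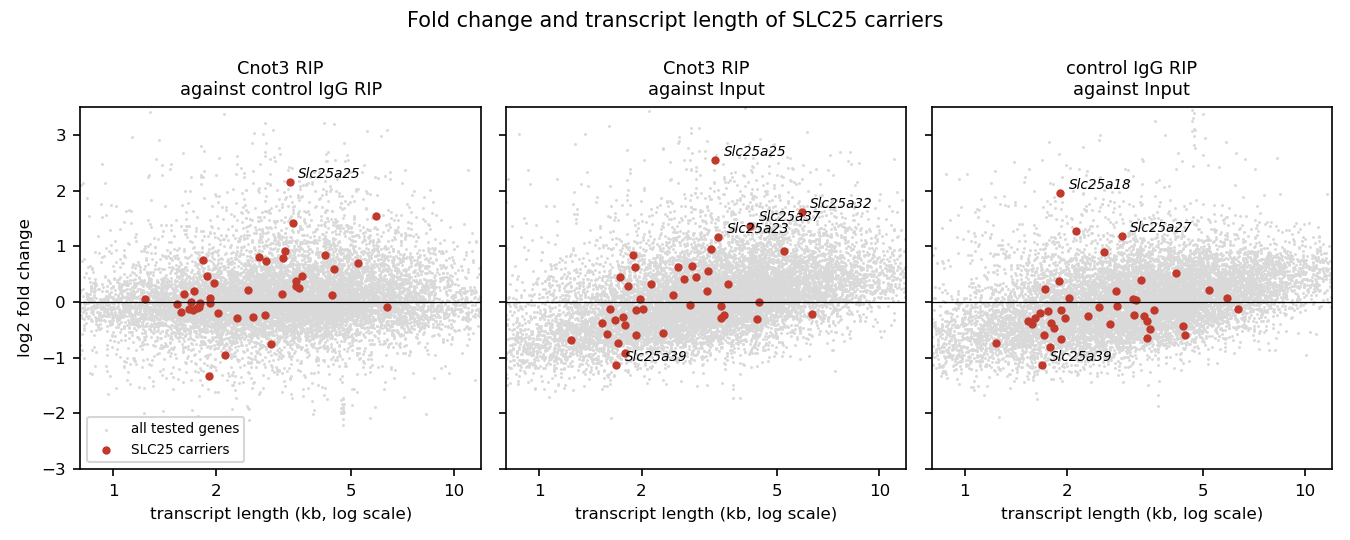
Log2 fold change (y axis) against principal transcript length (x axis, kb on a log scale) for tested carriers (red) and all tested genes with a known length (grey) in the 3 comparisons; genes beyond the axes are not drawn. Called carriers are named: Slc25a25, Slc25a32, Slc25a37 and Slc25a23 lie to the right of Slc25a39 in the panel of Cnot3 RIP against Input.

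Other mitochondrial transport genes were set beside the family. Between Cnot3 RIP and control IgG RIP, 0 of them passed by limma, edgeR or DESeq2. The lists held 4 tested SLC25 relatives under other symbols, 19 other inner membrane transporters and 12 genes of carrier import and the outer membrane channel. At an unadjusted limma p under 0.05 there was 1 in each list, where 17.3% of all tested genes passed. In that order, the median log2 fold changes of the lists were 0.0048, -0.24 and -0.019. The smallest adjusted p among the import genes was that of the import receptor Tomm20, with 9.01 and 15.6 scaled CPM in Cnot3 RIP, against 5.71 and 6.71 in control IgG RIP, with 7.85 and 8.35 in Input (log2 fold change 0.91, limma adjusted p = 0.141). Ucp3, the muscle uncoupling protein, had the largest difference of these genes and its Cnot3 RIP libraries were far apart, at 17.0 and 138 scaled CPM in Cnot3 RIP, against 17.6 and 8.02 in control IgG RIP, with 9.79 and 29.7 in Input (2.01, SE 0.86, limma adjusted p = 0.270). The next smallest p in each list gave log2 fold changes of -0.35 for Ucp2 and 0.037 for Mtch2 among the relatives, and 0.47 for Tomm22 and 0.37 for Tomm70a among the import genes (limma adjusted p from 0.390 to 0.965). Among the other transporters the 3 smallest were those of Mcur1 at 0.64, Micu3 at -0.71 and Sfxn4 at -0.78 (limma adjusted p = 0.263, 0.316 and 0.325).

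Against Input, limma and edgeR called 3 of these 35 genes lower in Cnot3 RIP and 0 higher, where limma called 2.47% of all tested genes lower and 5.86% higher. DESeq2, which called 12% of all tested genes in either direction, called the same 3 and also Vdac2 (-0.83, adjusted p = 0.0227) and Smdt1 (-1.06, 0.0232), with Sfxn5 higher (1.70, 0.0183). It also called Smdt1 lower in control IgG RIP against Input (-1.11, DESeq2 adjusted p = 0.0372), where it called 5.46% of all tested genes. The uncoupling protein Ucp2 had 16.5 and 12.6 scaled CPM in Cnot3 RIP, against 18.9 and 17.9 in control IgG RIP, with 29.4 and 34.6 in Input (log2 fold change -1.13, limma adjusted p = 0.0243). Mpc2, a subunit of the pyruvate carrier, had 22.7 and 16.9 scaled CPM in Cnot3 RIP, against 21.7 and 27.1 in control IgG RIP, with 45.5 and 44.1 in Input (-1.18, 0.0232). Mtch1, an outer membrane relative of the carriers, had 18.2 and 15.9 scaled CPM in Cnot3 RIP, against 17.0 and 17.8 in control IgG RIP, with 30.6 and 30 in Input (-0.82, 0.0446). Both immunoprecipitates were below Input for each of the 3. The sideroflexin Sfxn5 had 2.64 and 7.01 scaled CPM in Cnot3 RIP, against 3.98 and 3.81 in control IgG RIP, with 0.831 and 1.98 in Input (log2 fold change 1.56 for Cnot3 RIP against Input, limma adjusted p = 0.0694). Micu3, a regulator of the calcium uniporter, was higher in control IgG RIP than in Input, at 6.17 and 4.58 against 2.22 and 1.21 scaled CPM, with 2.74 and 3.63 in Cnot3 RIP (1.55, limma adjusted p = 0.0390). In the import list 0 genes passed limma against Input in either immunoprecipitate. At an unadjusted limma p under 0.05 there were 3 for Cnot3 RIP and 4 for control IgG RIP (27.2% and 24.9% of all genes). By edgeR 0 and 0 were called (8.89% and 2.61%), and by DESeq2 1 and 0 (12% and 5.46%). The smallest p belonged to the channel Vdac2 (-0.80 for Cnot3 RIP, limma adjusted p = 0.0567, and -0.67 for control IgG RIP, 0.111), Tomm40 (-0.63 and -0.58) and Timm10 (-0.60 and -0.65). The relatives also held 0 calls for control IgG RIP against Input by limma, edgeR and DESeq2. At an unadjusted limma p under 0.05 there were 2 (24.9% of all genes). The log2 fold changes were -0.80 for Mtch1, -0.78 for Ucp2 and -0.46 for Mtch2 (limma adjusted p = 0.0676, 0.0848 and 0.213).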

How the data were processed

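The deposited table gave CPM per gene symbol and library, made by the authors. The submitters' processing notes name TopHat2 2.1.0, Bowtie2 2.2.5, CASAVA 1.8, edgeR and FastQC, with mm10. Counter, annotation and strand setting are not given there. The smallest step between low values gave the worth of 1 read, and 100% of values were whole reads within 0.01. CPM were scaled by TMM (edgeR 4.0.16). A limma 3.58.1 fit (R 4.3.3, trended empirical Bayes) used log2(scaled CPM + 0.25), with all 6 libraries in 1 fit of 3 group means and adjustment over all genes tested (Benjamini-Hochberg, called under 0.05). The filter was 10 reads, or 0.538 CPM, in 2 libraries, which kept 13010 of 24421 genes. Fold changes are on this log2 scale and understate those of low genes. The quasi-likelihood test of edgeR on recovered reads called 296 genes between Cnot3 RIP and control IgG RIP, against 236 with limma, and DESeq2 1.42.0 was another alternative. With 2 libraries against 2, an exact permutation test cannot give a p under 0.333. Scripts were tested on simulated data. Transcript lengths, 3′ UTRs and coordinates came from GENCODE on the same build, matching the 47 members by symbol. Reads without molecular identifiers need not be independent molecules, so intervals and floors show counting error only. Members and lists were chosen with earlier results of these data known. Values are given for called members, up to 4 of highest level in each role, and in other lists those called or of the 3 smallest p.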

Additional observations from a re-analysis of the deposited data

How the results depend on the processing

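Between Cnot3 RIP and control IgG RIP, 236 genes, 1 of them a carrier, were called in the fit described above. The counts became 625 and 3 with library sizes alone as scaling, 35 and 0 without the filter, 112 genes with only the 2 groups in the fit, 296 and 2 with edgeR, and 720 and 3 with DESeq2. Leaving out a library gave 0 to 1306 genes and 0 to 7 carriers. The median of the carriers, 0.14, was 0.45 with library sizes alone and -0.01 to 0.33 with a library left out. For Cnot3 RIP against Input, 1083 genes and 5 carriers became 7759 and 27 with library sizes alone, 548 and 2 without the filter, and 812 and 3 with only the 2 groups. Leaving out a library gave 12 to 1970 genes and 0 to 8 carriers, and the median of 0.0014 was 0.95 with library sizes alone and -0.17 to 0.11 with a library left out. For control IgG RIP against Input, 530 genes and 3 carriers became 4393 and 7 with library sizes alone, 438 and 1 without the filter, 1002 genes with only the 2 groups, and 339 and 1 with edgeR. Leaving out a library gave 20 to 895 genes and 0 to 3 carriers, and the median of -0.19 was 0.50 with library sizes alone and -0.33 to -0.16 with a library left out. Scaling with library sizes alone turned 8 carriers from below 0 to called above 0 in Cnot3 RIP against Input: Slc25a3, Slc25a12, Slc25a40, Slc25a46, Slc25a10, Slc25a15, Slc25a24 and Slc25a44, at 0.95, 0.87, 0.93, 0.77, 0.89, 0.77, 0.94 and 0.81 on the log2 scale, each below the 1.02 of all genes. In the fits without a library, the lone sample of its group is assumed to vary like the other groups.

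Replicate numbers are shared by the groups, but the correlation of deviations across 13010 genes was -0.32 for Cnot3 RIP with control IgG RIP, 0.34 for Cnot3 RIP with Input and -0.33 for control IgG RIP with Input, so the numbers were not taken as pairs. With a replicate block, 385 genes and 3 carriers (Slc25a25, Slc25a23 and Slc25a32) were called between Cnot3 RIP and control IgG RIP, and 325 genes and 0 carriers between control IgG RIP and Input. A crossed pairing with the control IgG RIP numbers swapped, chosen after seeing these correlations, called 1065, 2498 and 1870 genes and 4, 10 and 5 carriers in the 3 comparisons. Over the settings other than the crossed pairing, 79 of 126 values of called carriers stayed called and 0 changed sign. The cause of these shifts was not tested. With 2 libraries a group, intervals of low carriers such as Slc25a18 and Slc25a31 rest on few reads.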
